A study of Mus musculus with 16 samples.

Results

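The genes of the extracellular matrix and of its turnover were examined in whole kidneys of 16 mice, namely the collagens, the laminin chains, the matrix metalloproteinases (MMPs), the tissue inhibitors of metalloproteinases (TIMPs), and fibronectin (Fn1). Genes were taken by the pattern of their symbols, 1 gene that fits the patterns was left out by the rule and is not reported here, and a gene became a member when no fewer than 4 of the 16 arrays showed its probe well above background. Of 82 such genes in the RefSeq table, 81 had a named probe, and 65 were members, against 16400 genes with a tested probe in the whole series. The genes below that limit were Col6a6, Col9a1, Col9a3, Col10a1, Col11a2, Col24a1, Col25a1, Col28a1, Mmp1a, Mmp1b, Mmp10, Mmp16, Mmp20, Mmp21, Mmp24, and Mmp25, and Mmp27 had no named probe. Of the members, 46 were above background on all 16 arrays.

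The series asks what Sting does in a lupus model, the Fcgr2b-deficient mouse. The 4 groups of 4 mice, all 6 months old, were wild-type C57BL/6 mice, Fcgr2b-/- mice on a mixed 129/C57BL/6 background (labelled Fcgr2b-ko, the lupus mouse), Fcgr2b-/-.Sting gt/gt mice on the same mixed background (labelled Fcgr2b-ko, Sting-ko, and called double-deficient here), and Sting gt/gt mice on C57BL/6 (labelled Sting-ko). Fcgr2b encodes the inhibitory Fc receptor of B cells and myeloid cells, and the gt allele of Sting, called Goldenticket, acts as a functional knockout of the adaptor that relays signals of cytosolic DNA. The deletion is in every cell of the animal, the Fcgr2b genotype and the strain background cannot be told apart, and the study heads the Fcgr2b-/- kidneys in its heatmaps as carrying 1 gt allele, while their labels name the Fcgr2b deletion alone.

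Collagens are trimers of alpha chains. Fibrillar collagens form the fibers of the interstitium and of scars, and collagen IV and the laminins form the sheets of the basement membranes, including the filter of the glomerulus. MMPs cut these proteins at the cell surface and in the matrix, TIMPs block the MMPs, and a rise of fibrillar collagen, fibronectin, and Timp1 is a textbook feature of kidney fibrosis in both mouse and man.

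RNA of each kidney was labelled with 1 dye and hybridized to its own array, and between 28441 and 35564 of 56605 probes were well above background. Levels are log2 intensities with the 75th percentile of the array set to 0, so 1 unit is 2-fold, and a level says nothing about another probe. Arrays of the same genotype correlated at 0.88 or more, with the lowest value among the Fcgr2b-/- mice. The 8 proximal tubule markers and the 6 podocyte markers were all measured, as a kidney should give. Fcgr2b itself was at 1.65, 1.37, 1.08, and 0.61 in wild-type and at 0.23, -0.51, -0.45, and -0.31 in Fcgr2b-/- mice, so these groups did not overlap. It was at -0.58, 0.02, -0.92, and -0.78 in double-deficient and at 1.01, 0.54, 0.19, and -0.65 in Sting gt/gt mice, which carry an intact Fcgr2b by their label. The Sting gt/gt and Fcgr2b-/- groups overlapped, and Sting gt/gt mouse 3 (0.19) lay below Fcgr2b-/- mouse 1 (0.23). The library labelled Sting gt/gt mouse 4 went against its label for this gene, since it lay below all 4 Fcgr2b-/- mice, and the cause was not tested. Its label was kept. The medians over all members and their counts at an unadjusted p under 0.05 are given without this mouse as well. So are the differences of Col6a1, Col20a1, Lamb2, Lamb3, and Timp4. Other Sting gt/gt results, among them Timp2, Mmp15, Mmp8, the medians by role, and the interactions of single genes, are given only with it. The gt allele is a point mutation, so the Sting probe does not check that label. In whole kidney, fewer cells of a type and less RNA per cell cannot be told apart. Where 4 values follow each other below, they are mice 1 to 4 of the group. Slide 1 held mice 1 and 2 of the wild-type and Sting gt/gt groups, mice 1, 2, and 4 of the Fcgr2b-/- group, and mouse 1 of the double-deficient group, and slide 2 held the others.

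No member passed the test in any comparison (limma, Benjamini-Hochberg adjusted p under 0.05 over 35628 probes and at least 2-fold). The share of all probes called was 0.0449% for Fcgr2b-/- against wild-type and 0% for each of the other comparisons. At an unadjusted p under 0.05, 10 of the 65 members had a higher and 0 a lower mean with Fcgr2b-/- than with wild-type, where 2.61% of all probes were higher and 0.688% lower. This count was 2, 25, 22, and 3 when Fcgr2b-/- mouse 1, 2, 3, or 4 was left out, 4 without wild-type mouse 2 or 3, and 9 to 11 without any other. The smallest adjusted p of a member there was 0.633 by limma, for Mmp23. The mean of 56 members lay above that of the wild-type mice, which was true of 44.7% of all probes, and 23 members were at least 2-fold higher, against 4.43% of all probes. The median log2 difference was 0.59 over the members and -0.04 over all probes.

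The double-deficient mean lay between the Fcgr2b-/- and wild-type means for 44 of the 65 members. How often this held over all probes was not counted, so it is no result about the members. Against Fcgr2b-/- the members' median was -0.43, beside 0.05 for all probes, and 16 members were at least 2-fold lower, against 2.71% of all probes. At an unadjusted p under 0.05, 2 members were lower, Mmp14 and Timp1, where 1.16% of all probes were, and the count was 0 without Fcgr2b-/- mouse 1 or mouse 4, 18 without mouse 2, and 11 without mouse 3. It was 0 without double-deficient mouse 1 or 4, 3 without double-deficient mouse 2 or 3, and 9 with the normexp background. With slide as a block, or with the signal of Y-linked genes as a covariate, it was 0. The labels of Fcgr2b-/- mouse 4 and double-deficient mouse 3 begin with one animal number, as do those of Fcgr2b-/- mouse 3 and double-deficient mouse 4 and those of wild-type mice 3 and 4, and what this number marks is not stated. With it as a random block, 21 members were lower and 2 higher at that p, 0 were called, and the median was -0.43. The share of all probes in that fit is not given, so the 21 are no result about the members. Against wild-type the median was 0.20, and 0 members were higher or lower at that p, beside 0.295% and 0.123% of all probes, although 52 means were higher by any size, against 51.2% of all probes. No member differed 2-fold there.

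Loss of Sting alone came with higher means too. In Sting gt/gt against wild-type mice the median of the members was 0.59, as large as in the Fcgr2b-/- mice, beside 0.02 for all probes, and 54 means were higher, against 51.4% of all probes. Here 13 members were at least 2-fold higher, against 6.19% of all probes. At an unadjusted p under 0.05, 3 members were higher, where 1.85% of all probes were, and 1 was lower, where 1.86% of all probes were. The higher count was 9 without wild-type mouse 1, 0 without wild-type mouse 2, and 1 without wild-type mouse 3. It was 7 without Fcgr2b-/- mouse 2, 5 without Fcgr2b-/- mouse 1 or Sting gt/gt mouse 2, and 2 to 4 without any other. Without Sting gt/gt mouse 4 it was 2, and the median was 0.44. For double-deficient against Sting gt/gt mice the median was -0.33, with 1 member higher and 2 lower at that p, beside 1.62% and 1.43% of all probes. Between these groups 16 means were higher by any size (49.7% of all probes) and 4 members were at least 2-fold lower (3.47%). Without Sting gt/gt mouse 4 the median was -0.29, with 1 member higher and 0 lower at that p. These comparisons share their control mice, so they do not support each other.

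**Figure D1:**
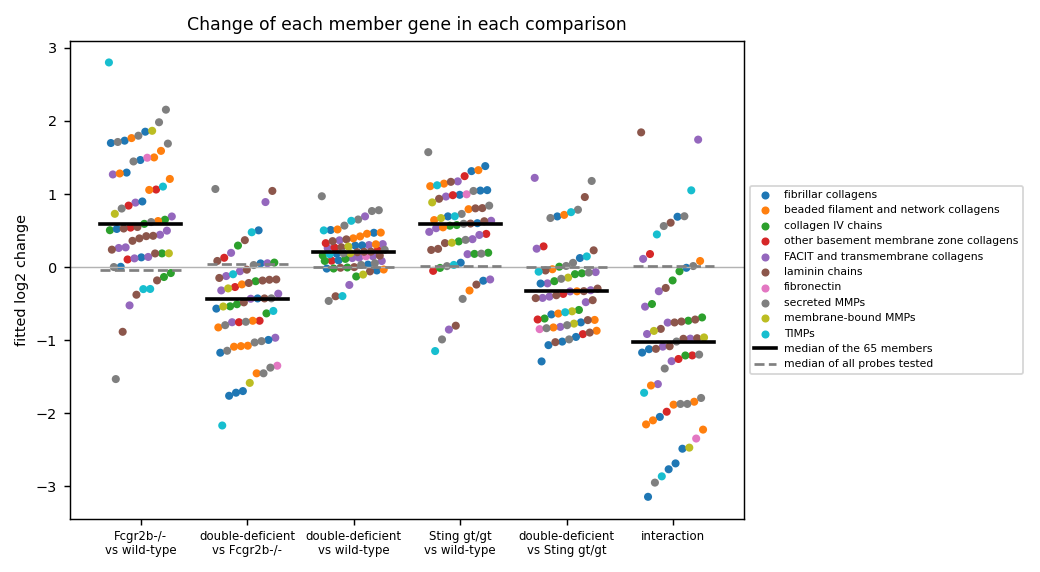
Fitted log2 change of each of the 65 members (points, colored by role) in the 5 comparisons and the interaction, with the median of the members (black line) and of all 35628 tested probes (dashed gray line). The members' median lies above the probes' median in Fcgr2b-/- and in Sting gt/gt against wild-type (0.59 and 0.59) and below it in the interaction (-1.02).

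The mice of a group were not alike. Of the 65 members, 43 exceeded the mean of the wild-type mice 2-fold or more in Fcgr2b-/- mouse 1 and 31 in mouse 4, against 0 in mouse 2 and 4 in mouse 3. The same count over all probes was 20.9%, 3.14%, 5.46%, and 9.69% in mice 1 to 4. Thus 2 of the 4 Fcgr2b-/- kidneys held most of the higher matrix levels, and the other 2 lay among or near the wild-type kidneys. Outside this group, 33 members were 2-fold up in Sting gt/gt mouse 1, 22 in Sting gt/gt mouse 4, 18 in wild-type mouse 1, whose own value is in the mean, and 17 in double-deficient mouse 2, and at most 9 in any other. Over all probes these mice stood at 11.4%, 22.2%, 15.1%, and 12.4%, and the others outside the Fcgr2b-/- group between 1.23% (wild-type mouse 3, 1 member) and 6.55% (Sting gt/gt mouse 3, 9 members). Fcgr2b-/- mouse 1 had the highest level of all 16 mice for 35 of the 65 members, where 14.3% of all probes were highest in it.

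**Figure D2:**
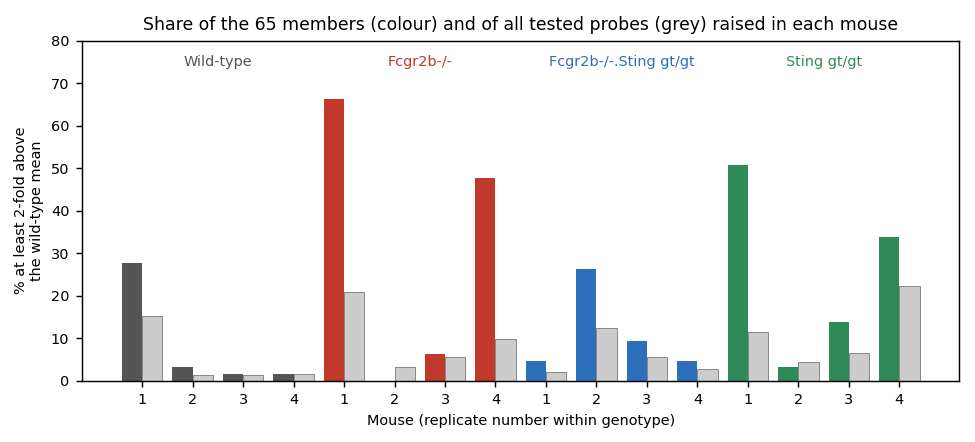
Percentage of the 65 members (colored bars) and of the 35628 tested probes (gray bars) at least 2-fold above the mean of the 4 wild-type mice, for each of the 16 mice. Fcgr2b-/- mice 1 and 4 reach 66.2% and 47.7% of the members and Sting gt/gt mouse 1 reaches 50.8%.

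Markers of other cells and of injury moved with these mice. The 6 of 6 tubular injury markers measured, which include Havcr1 (kidney injury molecule 1) and Lcn2, had a mean log2 difference from the wild-type mice of 2.87, 0.42, -0.03, and 2.67 in the Fcgr2b-/- group, and of -0.21 to 0.20 in wild-type, -0.27 to 0.26 in double-deficient, and -0.16 to 0.29 in Sting gt/gt mice. The 9 of 9 macrophage and monocyte markers were at 2.55, 0.76, 0.76, and 2.40 in the Fcgr2b-/- group, against -0.51 to 0.91, 0.22 to 1.24, and -0.03 to 0.97 in wild-type, double-deficient, and Sting gt/gt mice. The 8 of 8 proximal tubule markers were lowest in Fcgr2b-/- mouse 1, at -1.68, 0.32, 0.23, and -0.52 in that group and between -0.72 and 0.36 in the other groups. Mice 1 and 4, which held the matrix levels, thus also held the injury and macrophage markers. The 8 of 8 markers of fibroblasts and mesangium, cells that make much of the interstitial matrix, were at 1.74, -0.23, -0.17, and 1.31 in the Fcgr2b-/- mice and ranged from -0.74 to 0.49 in wild-type, -0.42 to 0.77 in double-deficient, and -0.08 to 1.36 in Sting gt/gt mice.

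Fat and other tissue also differed. The 6 of 6 adipocyte markers were high in wild-type mouse 1, Fcgr2b-/- mouse 1, and Sting gt/gt mouse 1 (2.67, 2.70, and 1.59) and at most 0.65 in the other 13. Without these 3 arrays, a choice made after seeing the data, the members' median was 0.50 in Fcgr2b-/- against wild-type, -0.19 in double-deficient against Fcgr2b-/-, and 0.64 in Sting gt/gt against wild-type. The 6 of 6 endothelial markers were highest in wild-type mouse 1 (1.69), Sting gt/gt mouse 1 (1.57), and Fcgr2b-/- mouse 1 (1.0). The 5 of 5 urothelial markers were at 2.08 in Sting gt/gt mouse 1 and at most 0.58 in the others. The part of these cells in the matrix levels was not tested beyond leaving out arrays. Without Fcgr2b-/- mouse 1 alone, the median in Fcgr2b-/- against wild-type was 0.32, and 0.48 without mouse 4. Without these mice in turn, the median in double-deficient against Fcgr2b-/- was -0.19 and -0.36. Both mice lay on slide 1, within which the median in Fcgr2b-/- against wild-type was 0.78, whereas slide 2 held Fcgr2b-/- mouse 3 alone and gave 0.24. Within slide 2 the median in double-deficient against Fcgr2b-/- was -0.06.

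**Figure D3:**
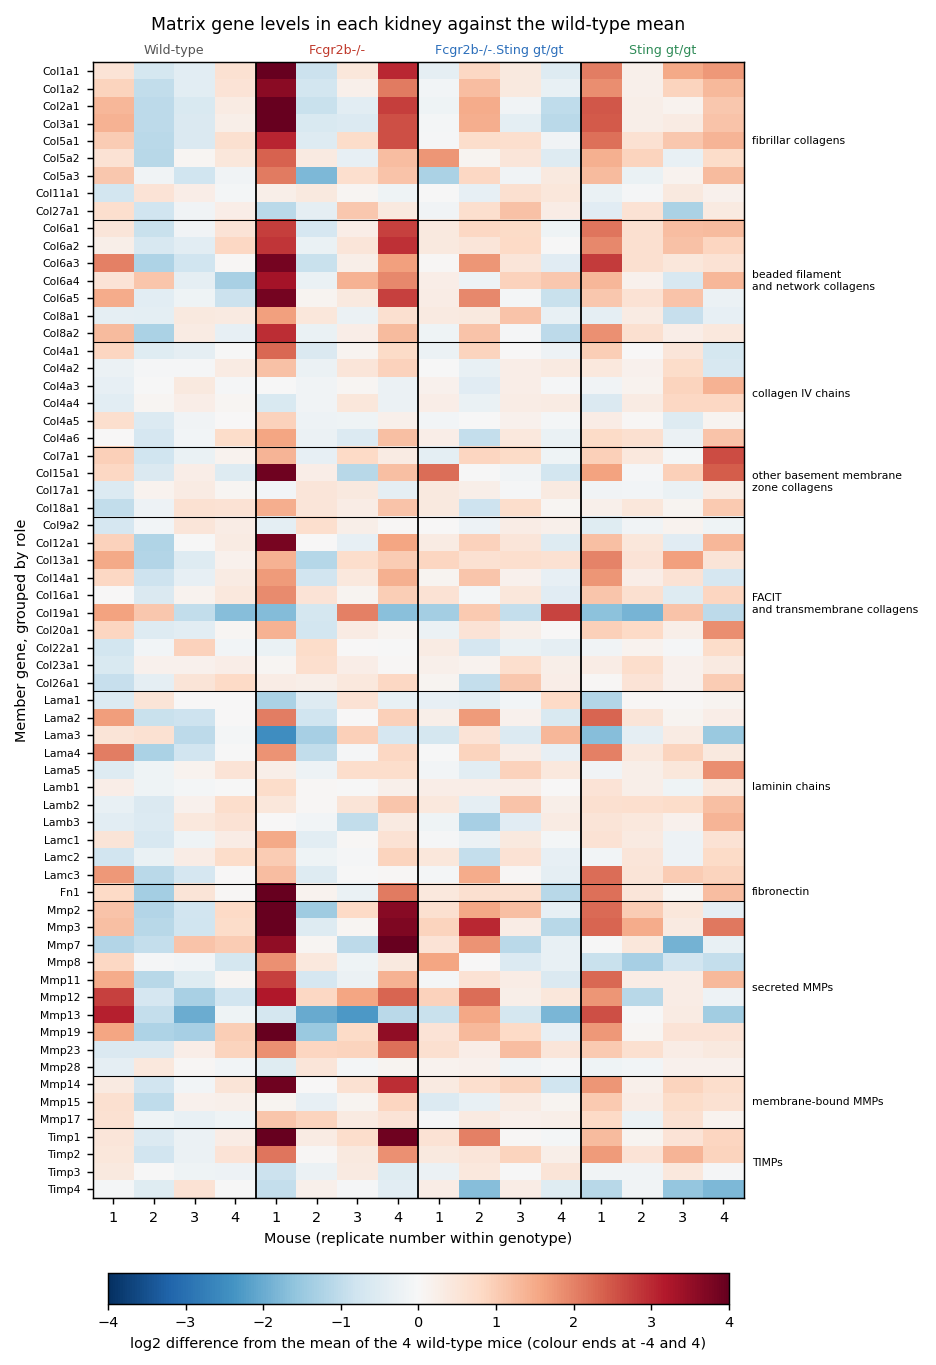
Log2 difference of each of the 65 members (rows, grouped by role) from the mean of the 4 wild-type mice, in each of the 16 mice (columns, numbered within their genotype). The strongest red lies in Fcgr2b-/- mice 1 and 4 among the fibrillar and beaded filament collagens, Fn1, the secreted MMPs, Mmp14, and Timp1, and Timp3, Lama1, and Lama3 are blue or pale in mouse 1.

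Fibrillar collagens differed widely between the mice. Col1a1 and Col1a2 encode the chains of collagen I, the main fiber of scars. Col1a1 was at -0.76, -2.0, -1.73, and -0.69 in wild-type, 3.52, -2.17, -0.83, and 1.71 in Fcgr2b-/-, -1.66, -0.46, -0.90, and -1.80 in double-deficient, and 0.76, -1.09, 0.23, and 0.44 in Sting gt/gt mice. Fcgr2b-/- mice 1 and 4 lay above all other kidneys and mouse 2 below all of them, so the groups overlapped. The log2 difference was 1.85 (SE 0.90, 95% interval -0.07 to 3.78) for Fcgr2b-/- against wild-type and -1.76 (SE 0.90) for double-deficient against Fcgr2b-/-. Without Fcgr2b-/- mouse 1 the first was 0.86 and the second -0.77.

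Col1a2 was at 3.0, 1.11, 1.67, and 2.63 in wild-type, 5.70, 1.37, 2.31, and 4.19 in Fcgr2b-/-, 1.98, 3.33, 2.49, and 1.79 in double-deficient, and 3.95, 2.29, 2.99, and 3.39 in Sting gt/gt mice, the same order of mice as for its partner chain in the Fcgr2b-/- group except that mouse 2 lay inside the wild-type range. Col3a1 encodes collagen III, which runs with collagen I in the interstitium. Its levels were 1.53, -0.92, -0.46, and 0.37 in wild-type, 5.47, -0.46, -0.40, and 2.72 in Fcgr2b-/-, 0.04, 1.59, -0.25, and -0.94 in double-deficient, and 2.60, 0.38, 0.46, and 1.28 in Sting gt/gt mice. Fcgr2b-/- mouse 1 again lay far above the rest, and mice 2 and 3 were within the wild-type range. Col5a1, a collagen V chain that sets fiber width, was at -1.63, -3.71, -3.22, and -1.99 in wild-type, 0.41, -3.14, -1.89, and -0.06 in Fcgr2b-/-, -2.69, -1.94, -1.96, and -2.78 in double-deficient, and -0.44, -2.04, -1.55, and -1.27 in Sting gt/gt mice. The 9 fibrillar members had a median log2 difference of 1.29 in Fcgr2b-/- against wild-type with 9 means higher, -1.0 in double-deficient against Fcgr2b-/- with 2 higher, 0.18 in double-deficient and 0.99 in Sting gt/gt against wild-type. Of these only Col5a1 had an unadjusted p under 0.05 in Fcgr2b-/- against wild-type (1.46, SE 0.67). Col11a1 and Col27a1 did not follow the others, with log2 differences of 0.13 and 0.00.

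Collagen VI forms beaded filaments around cells, and Col6a1 and Col6a2 encode chains of one trimer. Col6a1 was at -0.02, -1.40, -0.63, and 0.05 in wild-type, 2.27, -1.17, -0.22, and 2.24 in Fcgr2b-/-, -0.11, 0.33, 0.27, and -0.66 in double-deficient, and 1.64, 0.14, 0.75, and 0.77 in Sting gt/gt mice. Every Sting gt/gt mouse lay above every wild-type mouse, by 1.33 on average (SE 0.66, limma adjusted p = 0.737), although Sting gt/gt mouse 2 and wild-type mouse 4 were close, and by 1.34 without Sting gt/gt mouse 4. It was the only member that was at least 2-fold higher without overlap in that comparison, as 0.208% of all probes were (0.603% at any size). Col6a2 was at -3.43, -4.31, -4.06, and -2.83 in wild-type, -0.81, -3.92, -3.17, and -0.73 in Fcgr2b-/-, -3.25, -3.18, -2.85, and -3.67 in double-deficient, and -1.75, -3.02, -2.49, and -2.80 in Sting gt/gt mice, with mice 1 and 4 of the Fcgr2b-/- group above all others. Fcgr2b-/- exceeded wild-type by 1.5 (SE 0.61).

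Col6a4 and Col6a5 encode rarer collagen VI chains and were dim. Col6a4 was well above background in 0 of 4 wild-type and 3 of 4 Fcgr2b-/- mice. Not every Fcgr2b-/- array showed it above background, so no bound on the difference is given (measured means -4.86 ± 1.49 in Fcgr2b-/- and -6.45 ± 1.05 in wild-type, SD, limma adjusted p = 1.0). Col6a5 was at -5.20, -7.11, -6.85, and -7.54 in wild-type, -2.83, -6.56, -6.30, and -3.95 in Fcgr2b-/-, -6.38, -4.75, -6.74, and -7.58 in double-deficient, and -5.59, -6.09, -5.54, and -6.90 in Sting gt/gt mice, and above background in 1, 2, 1, and 0 of them. The highest of all 16 were Fcgr2b-/- mice 1 and 4. Its log2 difference in Fcgr2b-/- against wild-type was 1.76 (SE 0.80). All 7 beaded filament and network collagens had higher means in Fcgr2b-/- than in wild-type mice (median 1.28, 3 at an unadjusted p under 0.05), and all 7 had lower means in double-deficient than in Fcgr2b-/- mice (median -1.07, 0 at that p).

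Collagen IV is the network of the basement membrane. Its 6 genes lie in 3 pairs that start head to head, and Col4a3, Col4a4, and Col4a5 make the trimer of the adult glomerular filter, where mutations cause Alport syndrome. In the promoter table, from RefSeq (GRCm38.p6), the annotated starts of Col4a1 and Col4a2 were 21 bases apart on opposite strands and those of Col4a5 and Col4a6 were 1343 bases apart, and Col4a3 was without a window. The windows of the first pair are shown because its genes share their promoter. Each runs from 250 bases before to 50 bases after its own start, 5′ to 3′ on its own strand, and capitals mark the 78 bases that both windows hold.
Col4a1, chr8:11312777-11313076, minus strand: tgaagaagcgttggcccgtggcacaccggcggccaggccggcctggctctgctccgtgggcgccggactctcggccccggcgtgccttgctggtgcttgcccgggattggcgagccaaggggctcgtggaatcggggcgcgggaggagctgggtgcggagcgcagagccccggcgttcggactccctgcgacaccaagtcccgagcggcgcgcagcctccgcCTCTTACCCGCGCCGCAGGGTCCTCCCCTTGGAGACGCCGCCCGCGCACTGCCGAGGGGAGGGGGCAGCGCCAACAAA
Col4a2, chr8:11312555-11312854, plus strand: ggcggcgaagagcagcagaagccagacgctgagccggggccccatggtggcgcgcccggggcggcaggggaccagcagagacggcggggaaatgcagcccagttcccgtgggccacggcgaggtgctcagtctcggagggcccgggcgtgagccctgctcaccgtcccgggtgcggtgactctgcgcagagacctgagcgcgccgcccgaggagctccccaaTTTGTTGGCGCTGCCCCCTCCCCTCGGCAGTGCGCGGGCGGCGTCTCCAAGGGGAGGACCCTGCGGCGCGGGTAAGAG

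Col4a1 was at 2.81, 1.48, 1.60, and 1.94 in wild-type, 4.27, 1.38, 2.06, and 2.71 in Fcgr2b-/-, 1.71, 2.84, 1.96, and 1.76 in double-deficient, and 2.94, 1.98, 2.43, and 1.26 in Sting gt/gt mice. Col4a2 was at 1.11, 1.31, 1.29, and 1.66 in wild-type, 2.52, 1.1, 1.84, and 2.28 in Fcgr2b-/-, 1.34, 1.06, 1.60, and 1.71 in double-deficient, and 1.78, 1.53, 2.09, and 0.71 in Sting gt/gt mice. Both were highest in Fcgr2b-/- mouse 1, but wild-type mouse 1 and double-deficient mouse 2, high for Col4a1, were low for Col4a2. Of the chains of the glomerular trimer, Col4a3 and Col4a4 had another order of mice, whereas Col4a5 (below) was also highest in Fcgr2b-/- mouse 1. Col4a3 was at 0.75, 1.07, 1.46, and 1.03 in wild-type, 1.06, 0.93, 1.17, and 0.84 in Fcgr2b-/-, 1.24, 0.62, 1.34, and 1.04 in double-deficient, and 0.93, 1.22, 1.96, and 2.47 in Sting gt/gt mice, and Sting gt/gt mice 3 and 4 were the highest. Sting gt/gt mouse 4 had at the same time the lowest Col4a1 and Col4a2 of all 16 mice. Col4a4 was at 0.27, 0.79, 0.97, and 0.80 in wild-type, 0.11, 0.55, 1.14, and 0.48 in Fcgr2b-/-, 0.97, 0.44, 1.01, and 1.04 in double-deficient, and 0.14, 1.04, 1.52, and 1.53 in Sting gt/gt mice, with the lowest value in Fcgr2b-/- mouse 1, which had the highest Col4a1. The 95% interval of the log2 difference in Fcgr2b-/- against wild-type was -0.74 to 0.57 for Col4a3 and -0.82 to 0.55 for Col4a4.

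Col4a5 was at 0.57, -0.64, -0.26, and -0.10 in wild-type, 0.82, -0.30, -0.29, and 0.09 in Fcgr2b-/-, -0.20, -0.11, 0.05, and -0.19 in double-deficient, and 0.20, -0.07, -0.63, and 0.02 in Sting gt/gt mice. Col4a6, found in the basement membrane of Bowman's capsule and of collecting ducts, was at -2.78, -3.48, -2.91, and -2.06 in wild-type, -1.22, -3.03, -3.35, and -1.60 in Fcgr2b-/-, -2.54, -3.75, -2.39, and -3.06 in double-deficient, and -2.05, -2.17, -3.04, and -1.65 in Sting gt/gt mice. All groups overlapped for both genes. The 6 collagen IV chains together had a median of 0.35 in Fcgr2b-/- and 0.27 in Sting gt/gt against wild-type, and none had an unadjusted p under 0.05 in any comparison, as limma gave it.

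Among the other collagens of the basement membrane zone, Col18a1, whose cleaved end is endostatin, was at 2.35, 3.13, 3.91, and 3.88 in wild-type, 4.77, 3.79, 3.60, and 4.46 in Fcgr2b-/-, 3.71, 2.50, 4.01, and 3.4 in double-deficient, and 3.53, 3.77, 3.44, and 4.36 in Sting gt/gt mice. Fcgr2b-/- mice 1 and 4 were the highest and wild-type mouse 1 the lowest of the 16. Col15a1 ranged most widely, from -5.64 in Fcgr2b-/- mouse 3 to -0.66 in Fcgr2b-/- mouse 1, with double-deficient mouse 1 at -2.33 and Sting gt/gt mouse 4 at -2.12. All 4 of these genes had higher means in Fcgr2b-/- than in wild-type mice (median 0.69), and so they had in double-deficient mice (median 0.25), with none at an unadjusted p under 0.05. The 10 fibril-associated (FACIT) and transmembrane collagens had a median of 0.36 in Fcgr2b-/- and 0.46 in Sting gt/gt against wild-type. Col20a1, the 1 of them at an unadjusted p under 0.05 between the latter groups, was at -4.19, -5.59, -5.47, and -4.98 in wild-type, -3.68, -5.79, -4.73, and -4.95 in Fcgr2b-/-, -5.28, -4.50, -4.82, and -5.04 in double-deficient, and -4.09, -4.27, -4.82, and -3.19 in Sting gt/gt mice. The difference of 0.97 (SE 0.44) rests on groups that overlap, and was 0.66 without Sting gt/gt mouse 4.

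Laminins are trimers of an alpha, a beta, and a gamma chain, and Lama5, Lamb2, and Lamc1 form the laminin of the adult glomerular filter. Lama5 was at 1.28, 1.60, 1.93, and 2.33 in wild-type, 2.02, 1.59, 2.47, and 2.49 in Fcgr2b-/-, 1.68, 1.38, 2.71, and 2.22 in double-deficient, and 1.65, 2.02, 2.22, and 3.63 in Sting gt/gt mice. Lamb2 was at -0.79, -1.07, -0.31, and 0.21 in wild-type, -0.04, -0.45, 0.04, and 0.61 in Fcgr2b-/-, -0.06, -0.86, 0.64, and -0.25 in double-deficient, and 0.15, 0.17, 0.24, and 0.72 in Sting gt/gt mice. The Sting gt/gt mice lay above 3 of the 4 wild-type mice, by 0.81 on average (SE 0.35, limma adjusted p = 0.737), and by 0.67 without Sting gt/gt mouse 4. Lamc1 was at 1.24, 0.10, 0.56, and 1.02 in wild-type, 2.26, 0.31, 0.77, and 1.31 in Fcgr2b-/-, 0.67, 0.48, 1.13, and 0.64 in double-deficient, and 1.32, 1.1, 0.52, and 1.30 in Sting gt/gt mice, so that of this trimer only the gamma chain was highest in Fcgr2b-/- mouse 1. Lama5 and Lamb2 were highest in Sting gt/gt mouse 4, the mouse with the low Fcgr2b.

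The other laminins split in 2 directions. Lamb3, a chain of an epithelial laminin, was at -2.33, -2.46, -1.47, and -1.33 in wild-type, -1.89, -2.01, -2.87, and -1.54 in Fcgr2b-/-, -2.05, -3.23, -2.33, and -1.56 in double-deficient, and -1.37, -1.47, -1.71, and -0.53 in Sting gt/gt mice. Double-deficient mice were lower than Sting gt/gt mice by 1.03 (SE 0.41, limma adjusted p = 0.891), and the groups overlapped. Without Sting gt/gt mouse 4 the difference was -0.78. Lama1, an alpha chain of tubular basement membranes, was lowest in Fcgr2b-/- mouse 1 at 0.32 and next lowest in Sting gt/gt mouse 1 at 0.42, while wild-type mice ranged from 1.04 to 2.09. Lama3 was likewise lowest in these mice, at -3.39 and -2.59, against -1.93 to -0.29 in wild-type mice. Lama4, a chain of vessel walls, was highest in these mice and wild-type mouse 1. Fcgr2b-/- mouse 1, Sting gt/gt mouse 1, and wild-type mouse 1 were at -0.40, -0.16, and -0.14, and the next highest was Sting gt/gt mouse 3 at -1.28. Over the 11 laminin chains the median was 0.36 in Fcgr2b-/-, 0.20 in double-deficient, and 0.60 in Sting gt/gt against wild-type.

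Fn1 encodes fibronectin, the glycoprotein on which collagen fibers are laid down. It was at 1.71, -0.45, 1.43, and 0.97 in wild-type, 4.97, 1.05, 0.64, and 2.98 in Fcgr2b-/-, 1.33, 1.56, 1.55, and -0.19 in double-deficient, and 3.12, 1.41, 0.98, and 2.14 in Sting gt/gt mice. Fcgr2b-/- mouse 1 was the highest, Sting gt/gt mouse 1 followed, and Fcgr2b-/- mice 2 and 3 lay within the wild-type range. The log2 difference was 1.5 (SE 0.82) for Fcgr2b-/- against wild-type and -1.35 (SE 0.82) for double-deficient against Fcgr2b-/-. Within slide 2, where mouse 3 is the only Fcgr2b-/- kidney, both turned sign, to -0.57 and 0.34. This mouse also differed from the wild-type mice of that slide in Y-linked signal.

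Among the membrane-bound MMPs, Mmp14 (MT1-MMP) cuts fibrillar collagen at the cell surface and activates the product of Mmp2. Mmp14 was at -3.46, -4.60, -3.94, and -3.32 in wild-type, 0.05, -3.83, -3.21, and -0.88 in Fcgr2b-/-, -3.46, -3.16, -2.95, and -4.62 in double-deficient, and -2.07, -3.63, -2.95, and -3.13 in Sting gt/gt mice. Fcgr2b-/- mice 1 and 4 were the highest of all 16, with Sting gt/gt mouse 1 next, and Fcgr2b-/- mice 2 and 3 were close to the wild-type mice. It was higher in Fcgr2b-/- than in wild-type mice by 1.86 (SE 0.70, 95% interval 0.37 to 3.36, limma adjusted p = 1.0) and lower in double-deficient than in Fcgr2b-/- mice by 1.58 (SE 0.70, limma adjusted p = 1.0). Mmp15 was at -4.15, -5.84, -4.65, and -4.60 in wild-type, -4.71, -5.15, -4.69, and -3.94 in Fcgr2b-/-, -5.36, -5.10, -4.49, and -4.70 in double-deficient, and -3.76, -4.53, -4.06, and -4.21 in Sting gt/gt mice. It was lower in double-deficient than in Sting gt/gt mice by 0.77 (SE 0.36), on groups that overlap. Mmp17 was the only member whose double-deficient mice all lay below the Fcgr2b-/- mice, as 0.303% of all probes did, by 0.54 (SE 0.28).

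The secreted MMPs digest collagen, elastin, and other matrix proteins. Promoters of several lie in one cluster on chromosome 9, and 4 of the 13 MMP windows held the AP-1 letters TGAGTCA, on either strand (read as TGACTCA on the other), as did 5.2% of all 32851 promoter windows of 300 bases. AP-1 is the Fos and Jun dimer that follows growth factor and stress signals. The stretches below show these 4 genes, Mmp13, Mmp12, Mmp3, and Mmp7, with 110 bases before the annotated start and the first 10 from it on, from RefSeq (GRCm38.p6, plus strand). Capitals mark the AP-1 letters, whose first base lies 35, 44, 46, and 63 bases before the start, in this order.
Mmp13, chr9:7272404-7272523: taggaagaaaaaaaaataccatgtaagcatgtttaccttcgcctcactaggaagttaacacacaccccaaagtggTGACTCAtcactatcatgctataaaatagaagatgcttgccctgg
Mmp12, chr9:7347264-7347383: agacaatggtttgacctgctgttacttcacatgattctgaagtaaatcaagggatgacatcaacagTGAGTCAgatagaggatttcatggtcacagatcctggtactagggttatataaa
Mmp3, chr9:7445712-7445831: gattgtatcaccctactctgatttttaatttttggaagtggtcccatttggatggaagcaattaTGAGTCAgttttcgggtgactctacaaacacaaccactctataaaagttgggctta
Mmp7, chr9:7691980-7692099: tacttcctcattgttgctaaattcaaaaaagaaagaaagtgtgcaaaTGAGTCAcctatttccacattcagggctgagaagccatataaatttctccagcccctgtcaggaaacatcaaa
The letters TATAAA stood in 5 of the 13 MMP windows, these 4 genes among them, against 13.6% of all windows. Over the 53 windows of the 47 members that had one, 9.43% held the AP-1 letters, 15.1% TATAAA, 58.5% GGGCGG (the GC box, 35.7% of all windows), and 34.0% CCAAT (37.4% of all), each on either strand and counted apart from the others. The fifth member with AP-1 letters was Col6a1.

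These 4 genes did not share one pattern. Mmp3 was at -4.88, -7.20, -6.88, and -5.36 in wild-type, -0.79, -6.58, -5.99, and -2.35 in Fcgr2b-/-, -5.17, -3.07, -5.78, and -7.18 in double-deficient, and -3.76, -4.60, -5.71, and -3.96 in Sting gt/gt mice, and above background on 7 of 16 arrays. Mmp7, which tubule cells make when injured, was at -6.39, -6.16, -4.06, and -4.19 in wild-type, -1.64, -5.12, -6.26, and -1.02 in Fcgr2b-/-, -4.66, -3.42, -6.27, and -5.51 in double-deficient, and -5.22, -4.74, -7.08, and -5.49 in Sting gt/gt mice. Both were highest in Fcgr2b-/- mice 1 and 4. Mmp13 had another order of mice, at -0.63, -4.70, -5.72, and -3.93 in wild-type, -4.46, -5.76, -6.05, and -4.84 in Fcgr2b-/-, -4.63, -2.19, -4.44, and -5.56 in double-deficient, and -1.17, -3.75, -3.43, and -5.14 in Sting gt/gt mice. Its Fcgr2b-/- mean was 1.53 lower than the wild-type mean, the largest such difference of a member, and wild-type mouse 1 and Sting gt/gt mouse 1 were the highest. None of these 3 had an unadjusted p under 0.05 between Fcgr2b-/- and wild-type mice in limma.

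Mmp12, the macrophage elastase, was at -1.07, -4.50, -5.12, and -4.58 in wild-type, -0.62, -2.98, -2.24, and -1.5 in Fcgr2b-/-, -2.88, -1.57, -3.58, and -3.36 in double-deficient, and -2.06, -4.91, -3.52, and -4.03 in Sting gt/gt mice. Unlike the fibrillar collagens, all 4 Fcgr2b-/- mice lay above wild-type mice 2, 3, and 4, and only wild-type mouse 1 was in their range. The log2 difference was 1.98 (SE 0.83, 95% interval 0.22 to 3.75, limma adjusted p = 1.0), and 2.90 without wild-type mouse 1. Mmp23, chosen after its values were seen, had the smallest p of a member in any comparison. It was at -2.87, -2.88, -2.02, and -1.39 in wild-type, -0.46, -1.43, -1.39, and -0.09 in Fcgr2b-/-, -1.65, -2.01, -1.07, and -1.82 in double-deficient, and -1.24, -1.64, -2.0, and -1.91 in Sting gt/gt mice. Fcgr2b-/- mice 2 and 3 were level with the highest wild-type mouse. Fcgr2b-/- exceeded wild-type by 1.45 (SE 0.39, 95% interval 0.62 to 2.27, limma adjusted p = 0.633). Within slide 2, where mouse 3 is the only Fcgr2b-/- kidney, the difference was 0.32.

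Mmp2, gelatinase A, was at -3.20, -5.52, -5.12, and -3.56 in wild-type, -0.18, -5.76, -3.56, and -0.71 in Fcgr2b-/-, -3.71, -2.79, -3.15, and -4.68 in double-deficient, and -2.09, -3.33, -3.91, and -4.72 in Sting gt/gt mice. Again Fcgr2b-/- mice 1 and 4 were the highest of all and mouse 2 the lowest. Mmp8, the neutrophil collagenase, was dim, at -4.29, -5.17, -5.24, and -5.83 in wild-type, -3.31, -4.72, -5.29, and -4.74 in Fcgr2b-/-, -3.56, -5.11, -5.68, and -5.43 in double-deficient, and -6.03, -6.48, -5.90, and -6.08 in Sting gt/gt mice. It was not well above background in any Sting gt/gt mouse but was in 1 of 4 double-deficient mice, so no bound on the difference is given (measured means -4.94 ± 0.95 and -6.12 ± 0.25, SD, limma adjusted p = 0.891). Each Sting gt/gt mouse lay below all mice of the other groups. Such a lack of overlap held for 1.32% of all probes that were lower than in wild-type mice, for 1.34% that were higher in double-deficient mice, and for 0.211% that were so at least 2-fold. The 7 of 10 neutrophil markers measured ranged from -0.53 to 0.42 in Sting gt/gt and 0.08 to 0.68 in double-deficient mice, and their part in Mmp8 was not tested. Over all 10 secreted MMPs the median was 1.57 in Fcgr2b-/- against wild-type (9 of 10 means higher), -0.90 in double-deficient against Fcgr2b-/-, 0.40 in double-deficient and 0.48 in Sting gt/gt against wild-type.

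The TIMPs differed among themselves. Timp1, the inducible inhibitor, was at -1.63, -2.65, -2.33, and -1.81 in wild-type, 4.15, -1.76, -1.41, and 1.80 in Fcgr2b-/-, -1.53, -0.10, -2.08, and -2.19 in double-deficient, and -0.85, -2.0, -1.56, and -1.23 in Sting gt/gt mice. The higher level lay in Fcgr2b-/- mice 1 and 4 and, less so, in double-deficient mouse 2. It had the largest difference of all members between Fcgr2b-/- and wild-type mice, 2.80 (SE 0.97, 95% interval 0.74 to 4.86, limma adjusted p = 1.0), and between double-deficient and Fcgr2b-/- mice, -2.17 (SE 0.97, limma adjusted p = 1.0). Without Fcgr2b-/- mouse 1 these were 1.65 and -1.01.

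Timp2, which also helps Mmp14 to activate the Mmp2 product, was at 3.69, 2.48, 3.01, and 3.79 in wild-type, 5.38, 3.29, 3.65, and 5.07 in Fcgr2b-/-, 3.64, 3.72, 4.14, and 3.49 in double-deficient, and 4.96, 3.78, 4.59, and 4.12 in Sting gt/gt mice. It was higher than in wild-type mice by 1.1 in Fcgr2b-/- (SE 0.45, limma adjusted p = 1.0) and by 1.12 in Sting gt/gt mice (SE 0.45, limma adjusted p = 0.737), and in neither case were the groups apart. The other tested probe of Timp2 gave 1.35 in Fcgr2b-/- and only 0.43 in Sting gt/gt mice. Timp3, the inhibitor bound to matrix, ran against these, at 6.89, 6.46, 6.31, and 6.27 in wild-type, 5.61, 6.25, 6.85, and 6.01 in Fcgr2b-/-, 6.26, 6.91, 6.46, and 7.01 in double-deficient, and 6.35, 6.35, 6.91, and 6.44 in Sting gt/gt mice. The lowest levels of all 16 were in Fcgr2b-/- mice 1 and 4, and the 95% interval for Fcgr2b-/- against wild-type was -0.90 to 0.30. Timp4 was at -4.43, -4.81, -3.76, and -4.36 in wild-type, -5.28, -4.13, -4.39, and -4.76 in Fcgr2b-/-, -4.03, -6.05, -4.04, and -4.82 in double-deficient, and -5.46, -4.47, -5.88, and -6.14 in Sting gt/gt mice. It was lower in Sting gt/gt than in wild-type mice by 1.15 (SE 0.46, limma adjusted p = 0.737), with 1 of 4 Sting gt/gt arrays well above background, and Sting gt/gt mouse 2 was in the wild-type range. Without Sting gt/gt mouse 4 the difference was -0.93. Over the alternatives other than leaving out 1 array it ranged from -1.95 to -0.18, so its size depends on the processing.

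**Figure D4:**
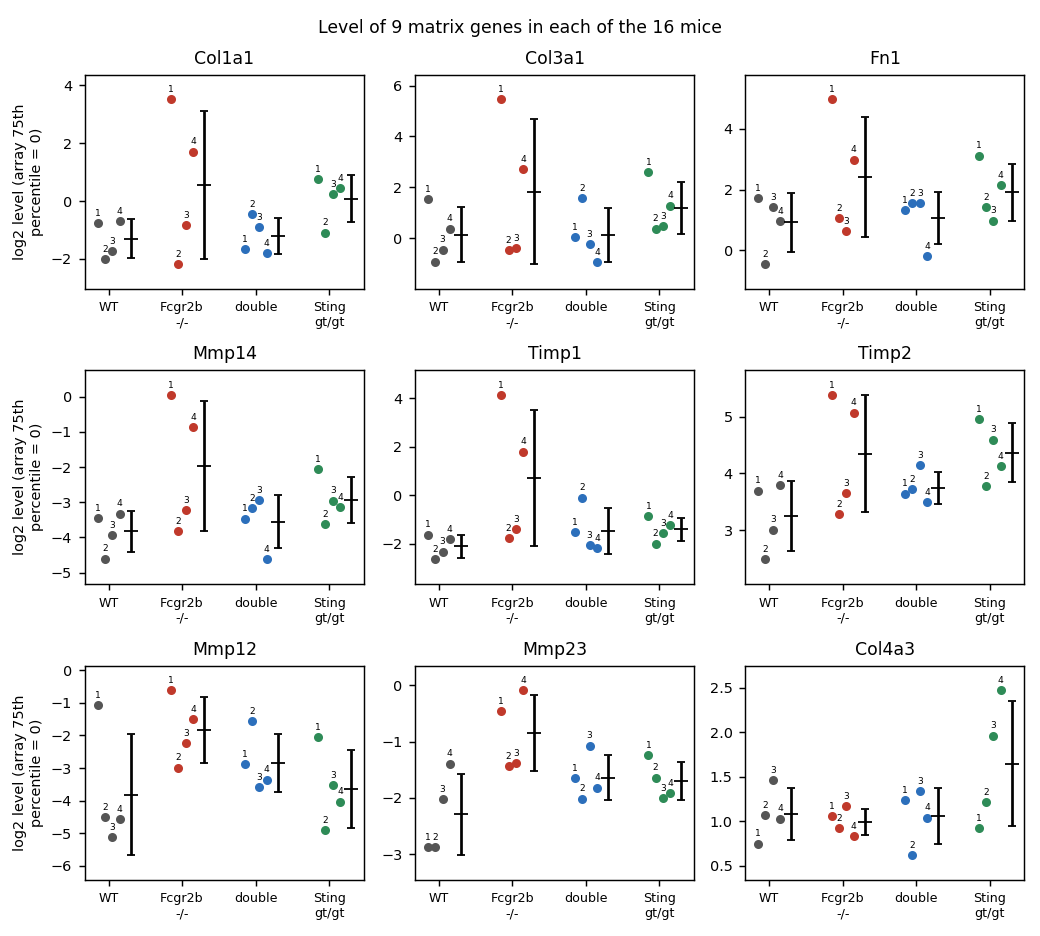
Log2 level of 9 members in each mouse (points, numbered within the genotype), with the mean and SD of the 4 mice beside them. For Col1a1, Col3a1, Fn1, Mmp14, and Timp1, Fcgr2b-/- mice 1 and 4 stand above mice 2 and 3, which lie among or near the wild-type mice, whereas Mmp12 lies above wild-type mice 2, 3, and 4 in all 4 Fcgr2b-/- mice and Col4a3 is highest in Sting gt/gt mice 3 and 4.

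The interaction asks whether loss of Sting moved a gene differently with and without Fcgr2b, as the difference of double-deficient against Fcgr2b-/- minus that of Sting gt/gt against wild-type. Its median was -1.02 over the members and 0.01 over all probes, and 9 members were below 0 and 0 above it at an unadjusted p under 0.05, against 2.74% and 3.46% of all probes. By any size 12 members were above 0 (50.6% of all probes), and 33 were at least 2-fold below and 3 above it (13.1% and 6.83% of all probes). The 9 members below 0 became 26, 19, and 17 without Fcgr2b-/- mouse 2, Fcgr2b-/- mouse 3, or wild-type mouse 1, 4 without Fcgr2b-/- mouse 4 or wild-type mouse 2, 5 without Fcgr2b-/- mouse 1, double-deficient mouse 4, or Sting gt/gt mouse 1, and 7 to 12 without any other. With the animal number as a random block they became 17, and without Sting gt/gt mouse 4 they stayed 9, with a median of -1.01. The share of all probes in the blocked fit is not given, so the 17 are no result about the members. Among those at that p with all mice, the largest were Col1a1 at -3.14 (SE 1.28), Col5a1 at -2.48 (SE 0.95), Mmp14 at -2.47 (SE 0.99), and Col6a2 at -2.22 (SE 0.86), each with a limma adjusted p of 0.668. Mmp3, Timp1, Col3a1, and Col2a1 lay between -2.95 and -2.68, with unadjusted p above 0.05. The values combine a lower mean in double-deficient than in Fcgr2b-/- mice with a higher one in Sting gt/gt than in wild-type mice. Within slide 1 the median was -1.31 and within slide 2 it was -0.44. By the moderated F test over the 4 genotypes, 0 members passed at an adjusted p under 0.05, beside 0.014% of all probes, and 2, Mmp23 and Mmp8, at an unadjusted p, beside 1.72% of all probes.

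Pairs of genes were set against each other over the 16 mice, after the mean of each genotype was taken off. They encode chains of one molecule, an enzyme and its inhibitor, or otherwise linked proteins (Col1a1 with Col3a1, Timp1 with Fn1). The test used 100000 permutations within genotypes (two-sided, Benjamini-Hochberg over 10 pairs). Chains of collagen I, of collagens I and III, and of collagen VI ran closely together. Col1a1 and Col1a2 gave r = 0.98 (rho = 0.97, permutation p = 1e-05, the smallest these permutations can give, adjusted 0.0001), Col1a1 and Col3a1 gave r = 0.92 (rho = 0.95, permutation p = 0.00018, adjusted 0.00045), and Col6a1 and Col6a2 gave r = 0.98 (rho = 0.97, permutation p = 6e-05, adjusted 0.0002). The 2 mice farthest from the median in the first gene of a pair were then left out, whatever the partner gene showed. Without them, Fcgr2b-/- mice 1 and 2 for each of these pairs, r was 0.95, 0.86, and 0.96.

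Proteases ran with their inhibitor, and Timp1 with fibronectin. Mmp14 and Timp2 gave r = 0.94 (rho = 0.96, permutation p = 2e-05, adjusted 0.0001), Mmp2 and Timp2 r = 0.89 (rho = 0.89, permutation p = 0.00193, adjusted 0.00322), and Timp1 and Fn1 r = 0.86 (rho = 0.80, permutation p = 0.0007, adjusted 0.0014). Without Fcgr2b-/- mice 1 and 2 these were 0.90, 0.82, and 0.75. Within slides 1 and 2, Timp1 and Fn1 gave 0.93 and 0.48, while the other 5 pairs named so far gave 0.72 or more on each.

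The collagen IV pairs, which start head to head, had lower values, and the difference from the other pairs was not tested. Col4a3 and Col4a4 gave r = 0.80 (rho = 0.79, permutation p = 0.00265, adjusted 0.00379) and Col4a5 and Col4a6 r = 0.69 (rho = 0.68, permutation p = 0.0124, adjusted 0.0155). For Col4a1 and Col4a2, whose windows are printed above, r was 0.58 (rho = 0.55, permutation p = 0.0866, adjusted 0.0962) and fell to 0.27 without the 2 mice farthest out in Col4a1, so it rested on them. Lamb2 and Lamc1 did not pass either (r = 0.43, rho = 0.40, permutation p = 0.118, adjusted 0.118). Without the 2 mice farthest out in the first gene, Col4a3 and Col4a4 kept r = 0.68, Col4a5 and Col4a6 0.73, and Lamb2 and Lamc1 0.34. Within slides 1 and 2 these pairs gave 0.61 and 0.74, 0.81 and 0.83, and 0.45 and 0.86, and Col4a1 and Col4a2 gave 0.78 and 0.35. Whether such ties reflect shared cells, tissue makeup, or the array was not tested.

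**Figure D5:**
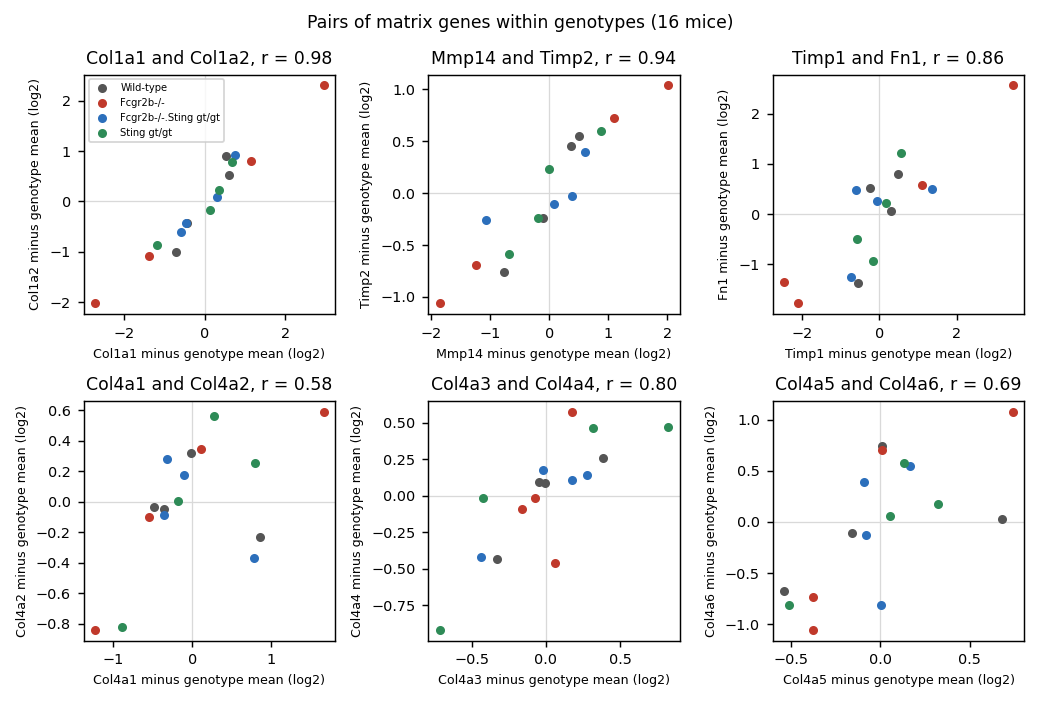
Log2 level of 1 gene against its partner for 6 of the 10 pairs, each with the mean of its genotype taken off (16 points, 1 per mouse, colored by genotype). Col1a1 with Col1a2 and Mmp14 with Timp2 fall close to a line, and Col4a1 with Col4a2 scatter widely (r = 0.58).

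Genes that make, bind, or trim the same matrix had no call either. Their counts stand beside 2.61% of all probes higher at an unadjusted p under 0.05 in Fcgr2b-/- against wild-type, and their medians beside -0.04 over all probes. Of 19 collagen folding and cross-linking enzymes, 1 was higher in Fcgr2b-/- than in wild-type mice at an unadjusted p under 0.05 (Loxl3, a lysyl oxidase, 1.40, SE 0.58), with a median of 0.39 over the list. Of the same list Serpinh1, the collagen chaperone, had an interaction of -1.14 (SE 0.49). Of 24 other basement membrane and matrix proteins, 6 were higher at that p (median 0.91), and those that differed most were Thbs2, a matricellular protein, at 2.28 (SE 0.92), and Fbln1, with an interaction of -2.81 (SE 1.20). Of 17 integrin and discoidin receptors, 2 were higher (median 0.41), the collagen receptor Itga11 by 2.17 (SE 0.78) and Itgb3 by 1.38 (SE 0.42).

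Of 18 genes of TGF-beta, PDGF, and CCN signals, the growth factors that drive matrix production, 5 were higher in Fcgr2b-/- than in wild-type mice at an unadjusted p under 0.05 (median 0.61). Tgfbi, a matrix protein induced by TGF-beta, differed between these groups by 1.95 (SE 0.72). Of 17 ADAM and plasminogen proteases, 4 were higher (median 0.53), most of all the aggrecanase Adamts4 (3.08, SE 0.88) and Adam8 of myeloid cells (2.23, SE 0.73). None of these genes was lower at that p in this comparison. Against the wild-type mean, Fcgr2b-/- mice 1 to 4 were at 1.01, 0.17, 0.04, and 0.80 over the folding and cross-linking list. They were at 2.14, -0.16, 0.03, and 1.49 over the other matrix proteins, and at 0.92, -0.06, 0.02, and 0.71 over the receptors. Over the TGF-beta, PDGF, and CCN list they were at 1.76, -0.17, 0.32, and 1.24, and over the proteases at 1.82, -0.02, 0.28, and 1.22. In each list mice 1 and 4 lay above mice 2 and 3. In double-deficient against Fcgr2b-/- mice the lists' medians were between -0.54 and -0.28 (0.05 over all probes), and in Sting gt/gt against wild-type mice between 0.25 and 0.75 (0.02 over all probes).

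Signal from 4 Y-linked genes was present on 6 arrays, 2 wild-type (mice 1 and 2), 1 Fcgr2b-/- (mouse 3), 2 double-deficient (mice 2 and 4), and 1 Sting gt/gt (mouse 3), and near background on the other 10. The labels give no sex. Over these arrays, 3 members did not overlap with the other 10, chosen after their values were seen, where 3.26% of all probes did not. Col19a1 was between -4.92 and -3.27 on the 6 arrays and between -7.84 and -6.69 on the others, where it was near or below background. Lama3 was between -0.56 and 0.45 on the 6 and at -0.98 or lower on the others. Col16a1 was between 0.15 and 0.81 on the 6 and at 0.86 or higher on the others, so the gap was narrow. As 3 of 65 members is near the share of all probes, this is a description of these genes alone.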

How the data were processed

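Total RNA of whole kidneys from 16 mice, 4 of each genotype, was amplified, labelled with Cy3, and hybridized to 1 array each. The authors deposited scanner files of spot intensity made with Agilent Feature Extraction 11.0 (background subtracted and spatially detrended, not normalized between arrays, design build mm9) and a table of log2 values, which was used as an alternative only. Processed intensities were taken to log2, and the 75th percentile of each array was subtracted. A probe was tested when 4 or more of 16 arrays showed it well above background (35628 probes), named through RefSeq (GRCm38.p6) accessions, and the probe with the highest mean stood for a gene. Of the members, 17 had several tested probes, and their probes disagreed in sign for 1 of these genes in Fcgr2b-/- against wild-type and in the interaction, 2 in double-deficient against Fcgr2b-/-, 3 in double-deficient against Sting gt/gt, 9 in double-deficient against wild-type, and 5 in Sting gt/gt against wild-type.

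One limma 3.58.1 model (lmFit and eBayes, R 4.3.3) held the 4 genotypes, with Benjamini-Hochberg adjustment over all probes. A call needed an adjusted p under 0.05 and a 2-fold difference. Values for every mouse were given for 19 fixed genes and, per comparison, for up to 4 members in each direction among those with an unadjusted p under 0.05, and for members at least 2-fold apart without overlap. From each pathway list the 2 genes with the largest difference at that p were named, except 1 gene that is not reported here. Mmp3, Mmp7, and Mmp13 were added for their promoters, and the Fcgr2b-/- differences of Mmp23, Col1a1, and Fn1, with Lama1, Lama3, Lama4, and Col15a1, after their values were seen. The members and lists were chosen with earlier results of these data known. Marker values are means over the list of the log2 difference from the wild-type mean. The scripts were tested on simulated data. Alternatives covered background, normalization, filters, test, slide, replicate block, the animal number of the labels, Y-linked signal, and leaving out arrays. The methods speak of littermate controls, but the labels tie no mouse to a litter, so p-values measure only the spread between these mice. The number of arrays limits the precision.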

Additional observations from a re-analysis of the deposited data

Results flagged for a closer look

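Over the named members and the members' median, 124 groups of 4 mice were searched for a mouse far from the others (Dixon's test), of which chance flags about 1 in 20, and 5 were found. Mmp12 was at -1.07 in wild-type mouse 1, against -5.12 to -4.50 in the other wild-type mice. Fn1 was at -0.19 in double-deficient mouse 4, against 1.33 to 1.56 in the others of its group. Col4a4 was at 0.44 in double-deficient mouse 2, against 0.97 to 1.04. Lamb2 was at 0.72 in Sting gt/gt mouse 4, against 0.15 to 0.24. Timp3 was at 6.91 in Sting gt/gt mouse 3, against 6.35 to 6.44.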

How the results depend on the processing

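No member was called under any alternative but the exact Mann-Whitney test without adjustment, with a 2-fold difference, which called 1 in Sting gt/gt against wild-type (Col6a1) and 1 in double-deficient against Sting gt/gt (Mmp8), where it called 117 and 171 of all probes. With 4 mice against 4 this test calls what does not overlap. When 1 array was left out, the members' calls ranged from 0 to 0 in every comparison, and the members' median ranged from 0.32 to 0.88 in Fcgr2b-/- against wild-type, -0.68 to -0.19 in double-deficient against Fcgr2b-/-, 0.06 to 0.41 in double-deficient against wild-type, 0.38 to 0.73 in Sting gt/gt against wild-type, -0.48 to -0.20 in double-deficient against Sting gt/gt, and -1.40 to -0.73 in the interaction. Within slide 2 the median in double-deficient against Fcgr2b-/- was -0.06, and the interaction median was -0.44. There Fn1 turned sign, to -0.57 in Fcgr2b-/- against wild-type and 0.34 in double-deficient against Fcgr2b-/-. Slide 2 holds 1 Fcgr2b-/- mouse, and on each slide all Fcgr2b-/- mice differed from the wild-type mice in Y-linked signal. No other difference of a named gene changed sign.

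Among the pairs, Col4a5 with Col4a6 did not pass under normexp background (0.61) or quantile normalization (0.57), while Col4a1 with Col4a2 (0.72) and Lamb2 with Lamc1 (0.59) passed in the deposited log2 table. The cause was not tested. With 1 array left out, r ranged from 0.40 to 0.72 for Col4a1 with Col4a2, 0.32 to 0.64 for Lamb2 with Lamc1, 0.56 to 0.81 for Col4a5 with Col4a6, 0.67 to 0.87 for Col4a3 with Col4a4, 0.73 to 0.89 for Timp1 with Fn1, and from 0.85 up to 0.98 for the other 5. Col4a5 with Col4a6 did not pass without Sting gt/gt mouse 3. Col4a1 with Col4a2 passed without wild-type mouse 1 or double-deficient mouse 2, and Lamb2 with Lamc1 without wild-type mouse 1 or Fcgr2b-/- mouse 1.

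Of 24 pairs of mice from 2 groups with the same replicate number, 11 correlated above 0.1 (range -0.60 to 0.69). Their median r was -0.06, against -0.03 for pairs with another number. Same-number mice were thus not closer by the median, which does not settle whether the numbers pair the mice. With the replicate block the members' median in Fcgr2b-/- against wild-type was 0.59, 0 members were called, and 13 were higher at an unadjusted p under 0.05, while in Sting gt/gt against wild-type 8 were higher in place of 3, and in the interaction 16 were lower in place of 9. Counts at that p also moved in other settings. With the deposited log2 values, 4 members were higher in Fcgr2b-/- and 1 in Sting gt/gt than in wild-type, 0 lower in double-deficient than in Fcgr2b-/-, and 4 below 0 in the interaction. With only the groups compared in the fit, the first 3 counts were 4, 8, and 0, and without the 3 arrays high in adipocyte markers all 4 were 4, 6, 0, and 2. With slide as a block they were 7, 2, 0, and 7, and with Y-linked signal as a covariate 9, 1, 0, and 5. The causes were not tested. Counts in these settings stand without the share of all probes, so they are no result about the members. Dim members (Col6a4, Col6a5, Col19a1, Mmp8) have no reliable level below background.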
